A study of Mus musculus with 22 samples.

Results

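Microglia sorted from the retinas of Vldlr knockout (KO) mice were compared with microglia of control mice at postnatal day 31 (P31) by RNA sequencing. The members are the libraries whose labels give this age and either genotype, 5 KO and 5 control libraries, of 22 libraries in the series. The other 12 libraries are from postnatal day 17 (P17), 7 control and 5 KO, and serve below for the comparison of the ages and for 1 alternative fit over all 22 libraries. Cells of both genotypes passed the same sort gate, CD45lowCD11b+Ly6C-Ly6G-Tom+. The genotype is written vldlrKO in titles and vldrlKO in other labels, and the controls are labelled control with no further allele. Strain, sex, the source of the Tom label, the part of Vldlr removed, and the number of animals behind each library are not stated in the labels. P-values therefore measure the spread between libraries, which may be technical.

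The product of Vldlr is the very low density lipoprotein receptor, which takes up triglyceride-rich lipoproteins and, with Lrp8, receives the Reelin signal. Mice without it develop abnormal vessels that grow from the deep retina toward the subretinal space, and the series title names this growth, retinal angiomatous proliferation, as its subject. Microglia are the resident macrophages of the retina. They divide slowly in the adult, clear debris, present antigen, respond to interferons, and change their lysosomal and lipid genes near injured photoreceptors and vessels. In dividing cells, E2F factors switch on genes of DNA replication, and mitotic genes follow later through promoters with CHR elements and CCAAT boxes.

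The 10 libraries held 29049781 to 53982835 reads over genes. Levels are given as CPM, reads of a gene relative to a fixed library total after TMM scaling, which corrects for differences in library composition. Genes with at least 10 reads in at least 5 of the 10 libraries were tested, 12363 of 28984. Log2 fold changes are of log2(CPM + 0.5), which understates the change of genes near 0, and a gene was called when its limma adjusted p fell under 0.05. Microglial genes were abundant in every library: P2ry12, a purine receptor, lay between 9558 and 12914 CPM. The gate genes Ly6c1 and Ly6c2 reached at most 0.271 CPM, and the T and NK cell list summed to at most 3.54 CPM. KO libraries 4 and 5 stood apart from the rest on the first pair of principal components, which held 24.7% and 16.3% of the variance. Controls 1 and 5 had Y-linked genes above 3 CPM and Xist below it, whereas controls 2 to 4 and all 5 KO libraries, the Xist-positive libraries, had Xist above 3 CPM and Y-linked genes below it.

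Vldlr itself (mm10 chromosome 19, 27216484 to 27254231) did not check the genotype labels at this age. Vldlr reads numbered 875 in control 1 and 0 in each other control, against 0, 1, 65, 1 and 14 in KO libraries 1 to 5. With 10 reads in too few libraries, the gene was not tested, so the groups are called by their labels. Lrp8 was at or below 1.52 CPM and was not tested.

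Across all genes, 393 were called, 3.18% of those tested. Of these, 228 (1.84%) were higher and 165 (1.33%) were lower in the KO, and 1852 genes had an unadjusted p under 0.05. The median log2 fold change over all tested genes was -0.05. Called genes differed more than 2-fold in 290 cases and more than 16-fold in 49, of which 37 were higher. KO and control libraries did not overlap for 735 genes (5.95%), among them 367 of the called ones. The call held in each of the 10 fits that left out 1 library for 205 genes (1.66%). Without KO libraries 4 and 5, an alternative added after seeing the data, 252 genes were called (2.04%), and 215 of the 393 were called again in the same direction. Among the Xist-positive libraries, 196 genes were called (1.59%), 171 of them shared in the same direction, and with a rod photoreceptor score as a covariate 139 were called (1.12%). Leaving out control 3 lowered the genes called lower to 106, and leaving out control 4 or KO library 2 lowered those called higher to 148 or 136, with 254 calls in all without KO library 2.

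The genes with the largest differences combined membrane transporters, chemotactic proteins, an ETS transcription factor and cell cycle genes. The 15 higher and 15 lower genes described next had the largest fold changes among genes called in all 10 leave-one-out fits, with no overlap between groups and at least 5 CPM in the higher group. Slc1a3, a glutamate transporter best known from astrocytes and Müller glia (chromosome 15, 8634124 to 8710764), was at 65.2, 76.8, 91.3, 101 and 76.7 CPM in controls 1 to 5 and at 2417, 2148, 2179, 2071 and 1696 CPM in KO libraries 1 to 5. All KO libraries lay far above all controls, and the log2 fold change was 4.68 ± 0.14 (SE, adjusted p = 2.63e-09). Ccr6, a chemokine receptor, was at 0.0303, 0.397, 1.64, 4.002 and 2.25 CPM in controls 1 to 5 and at 239, 198, 212, 206 and 183 CPM in KO libraries 1 to 5. Every KO library thus held Ccr6 at a level no control reached, a log2 fold change of 6.96 ± 0.52 (SE, adjusted p = 2.51e-05). Angptl7, an angiopoietin-like secreted protein, rose from 3.60 ± 3.41 to 117 ± 26.5 CPM (SD, n = 5 each), a log2 fold change of 5.62 ± 0.78 (SE, adjusted p = 0.00186). Apoc1, an apolipoprotein gene beside Apoe, rose from 1.69 ± 2.04 to 33.5 ± 8.99 CPM, a log2 fold change of 4.54 ± 0.70 (SE, adjusted p = 0.00367).

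Several higher genes were absent from the controls. Cxcl13, a chemokine that attracts B cells, had 0 reads in all 5 controls and 36.9, 9.69, 7.59, 39.96 and 6.65 CPM in KO libraries 1 to 5. Against a floor of 3 reads per control library, Cxcl13 was at least 256-fold higher (limma adjusted p = 9.06e-04). Ifi202b, an interferon-inducible p200 protein, had 0 reads in the controls and 16.7, 18.1, 13.4, 10.2 and 12.7 CPM in the KO, at least 181-fold higher (limma adjusted p = 8.08e-05). Cyclin E1 (Ccne1) and Ranbp3l also had 0 reads in every control and were at least 151-fold and 138-fold higher (limma adjusted p = 0.00103 and 5.55e-04). These bounds cover counting error only. Rps3a3, a processed pseudogene of a ribosomal protein gene, had a log2 fold change of 5.44 ± 0.48 (SE, adjusted p = 7.53e-05), which is uncertain because near-identical copies share reads with it. The remaining genes of the 15, namely Dtl, Ccnb2, Ccna2, Cenpa, Brca1 and Kif2c, belong to the cell cycle lists.

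Among the lower genes, Serinc3, a membrane protein that can be built into virus particles, was at 10289, 8876, 9485, 9594 and 9438 CPM in controls 1 to 5 and at 1207, 1072, 1088, 1442 and 1353 CPM in KO libraries 1 to 5. Its KO levels clustered far below the controls, with a log2 fold change of -2.96 ± 0.09 (SE, adjusted p = 2.63e-09). Slc2a5, a fructose transporter that marks microglia, was at 674, 1132, 949.8, 906 and 786 CPM in controls 1 to 5 and at 7.88, 14.01, 8.05, 8.80 and 34.0 CPM in KO libraries 1 to 5. No KO library came near the lowest control, and the log2 fold change was -6.11 ± 0.35 (SE, adjusted p = 2.16e-06). Ets1, an ETS transcription factor (chromosome 9, 32636221 to 32757820), was at 202, 133, 185, 169 and 294 CPM in controls 1 to 5 and at 8.40, 0.753, 0.406, 0.691 and 1.02 CPM in KO libraries 1 to 5. KO library 1 was the highest of the KO group yet remained far below every control, with a log2 fold change of -6.73 ± 0.56 (SE, adjusted p = 4.57e-05). Mrc2, an endocytic collagen receptor, fell from 28.01 ± 7.65 to 0.0193 ± 0.0304 CPM (SD, n = 5 each), a log2 fold change of -5.73 ± 0.46 (SE, adjusted p = 3.64e-05).

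The other lower genes of the 15 had control means of 11.6 CPM (Slamf1) to 66.0 CPM (Ifi204). AI506816, a non-coding RNA, had a log2 fold change of -5.65, and Zfp984, one of a cluster of similar zinc finger genes, of -4.95. Pear1, a platelet receptor with EGF repeats, and Jag2, a Notch ligand, had values of -5.07 and -4.08. Lrba, which keeps CTLA4 from lysosomal breakdown, and Slamf1, a self-ligand receptor on immune cells, had -4.84 and -3.77. Fblim1, an adaptor at cell-matrix contacts, Rhof, a small GTPase of filopodia, and Oscp1 had -4.09, -3.91 and -3.37. The p200 genes Ifi204 and Ifi209 had -4.80 and -3.36. Limma adjusted p for these 11 genes ran from 1.00e-04 (Zfp984 and AI506816) to 0.0134 (Oscp1). Of the 30 genes, 24 were called without KO libraries 4 and 5, 22 among the Xist-positive libraries, 20 with the rod covariate, 14 by edgeR and 23 by DESeq2. Exons of Ccna2, Pear1, Zfp984, Lrba, Rhof and Serinc3 overlap exons of another annotated gene, as do those of 32 of all 127 genes named here. The labels do not say whether counting used strand, so reads of such pairs cannot be told apart.

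**Figure D1:**
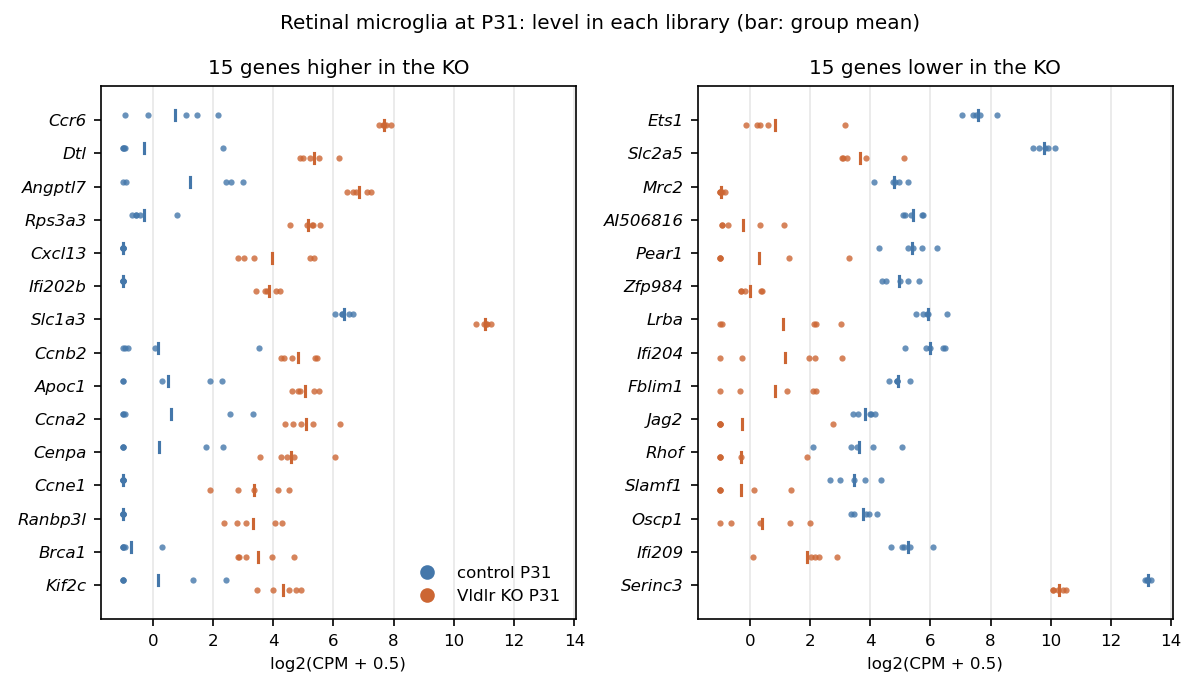
Level of the 15 genes higher and 15 genes lower in the KO, as log2(CPM + 0.5) in each of 5 control and 5 KO libraries, with a bar at the group mean. The groups do not overlap for any of the 30 genes, which the naming rule required; Slc1a3 and Serinc3 show tight groups, and in Jag2 KO library 2 lies at 6.35 CPM while the other KO libraries are at 0.

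Genes of the cell cycle made up 31 of the 228 genes called higher. Over 9 lists of replication, mitosis and DNA repair genes, 175 genes in all, 152 were tested; 31 rose, 1 fell (Pttg1, securin) and 120 missed the threshold. Their median log2 fold change was 1.46, against -0.05 for all genes, and 142 of 152 values were above 0. Summed over the 175 genes, the level was 2189.9, 1842, 2329, 2044 and 2179 CPM in controls 1 to 5 and 4165, 4984, 3936, 4651 and 4642 CPM in KO libraries 1 to 5. The lowest KO library was thus above the highest control. In bulk RNA, more cells in cycle and more of these transcripts per cell cannot be told apart.

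The number of calls depended on the libraries and the test. Called in every leave-one-out fit were 13 of the 32, and the count of calls fell to 14 without KO library 2, 20 without control 2 or KO library 1 and 21 without control 4 or KO library 4. Without KO libraries 4 and 5, 13 were higher, among the Xist-positive libraries 15, with the rod covariate 9, with edgeR 8 and with DESeq2 26. Pttg1, chosen here because it was the exception, was at 27.9, 24.04, 38.5, 28.1 and 38.9 CPM in controls 1 to 5 and at 3.92, 12.4, 7.26, 9.04 and 18.5 CPM in KO libraries 1 to 5. Its log2 fold change of -1.71 ± 0.40 (SE, adjusted p = 0.0370) no longer passed without control 1, 2, 3, 4 or 5 or KO library 1, 2, 3 or 4 (adjusted p up to 0.103).

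**Figure D2:**
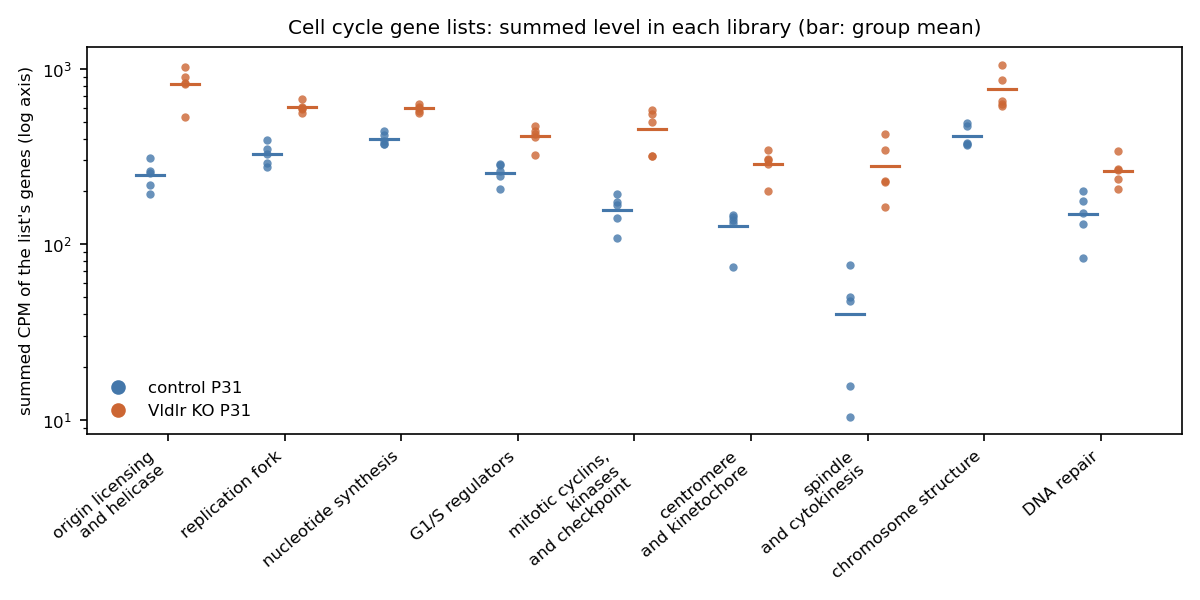
Summed CPM of each of the 9 cell cycle lists (log axis) in each control and KO library, with a bar at the group mean. In all 9 lists the 5 KO libraries lie above the 5 controls; the gap is widest for the spindle list and narrowest for DNA repair.

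Of the genes that license origins and unwind DNA, 6 of 19 tested rose and 0 fell, with a median log2 fold change of 1.52. The number of calls was 3 without KO library 1, 2, 3 or 4. Mcm6, a subunit of the replicative helicase, was at 19.7, 22.1, 29.4, 16.6 and 27.2 CPM in controls 1 to 5 and at 164, 114, 121, 161 and 64.7 CPM in KO libraries 1 to 5. All KO values were above all controls, KO library 5 being the lowest, with a log2 fold change of 2.37 ± 0.28 (SE, adjusted p = 5.83e-04). Mcm2, another subunit, was at 9.74, 26.0, 27.5, 7.95 and 16.2 CPM in controls 1 to 5 and at 114, 92.4, 71.0, 66.1 and 62.9 CPM in KO libraries 1 to 5. Its groups did not overlap either, and the log2 fold change was 2.31 ± 0.36 (SE, adjusted p = 0.00407). Dtl, the substrate receptor that clears the licensing factor Cdt1 in S phase, was at 0, 0.0189, 4.55, 0 and 0.0313 CPM in controls 1 to 5 and at 36.6, 28.9, 30.9, 72.8 and 45.6 CPM in KO libraries 1 to 5. Only control 3 held more than a trace, and the log2 fold change was 5.66 ± 0.70 (SE, adjusted p = 8.69e-04). Mcm3, at a log2 fold change of 1.34 ± 0.28 (SE, adjusted p = 0.0217), no longer passed without control 2 or 4 or KO library 1, 2, 3 or 4 (adjusted p up to 0.0577).

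At the replication fork, 4 of 23 tested genes rose, none fell, and all 23 log2 fold changes were above 0 (median 0.96). The count of calls was 1 without control 1 or KO library 1 and 2 without control 2 or 4 or KO library 2, 3 or 4. Prim1, the catalytic primase subunit, was at 1.12, 4.05, 3.12, 0 and 0 CPM in controls 1 to 5 and at 23.1, 16.97, 19.8, 17.6 and 21.003 CPM in KO libraries 1 to 5. KO values were tightly grouped above the controls, with a log2 fold change of 3.78 ± 0.69 (SE, adjusted p = 0.0106). Uhrf1, which carries DNA methylation through replication, had a log2 fold change of 4.47 ± 0.94 (SE, adjusted p = 0.0229) that was lost without control 1, 3 or 4 or KO library 1, 2, 3 or 4 (adjusted p up to 0.0582). Rfc3 and Pole2, of the clamp loader and polymerase epsilon, had log2 fold changes of 1.57 and 2.50. Rfc3 was lost without control 1 or 2 or KO library 1, 2 or 4 (adjusted p up to 0.0608), and Pole2 without control 1, 2 or 4 or KO library 1, 2, 3, 4 or 5 (adjusted p up to 0.112). Nucleotide synthesis genes had no call among 15 tested, and the smallest p belonged to Ctps, CTP synthase, with a log2 fold change of 3.44 ± 0.92 (SE, adjusted p = 0.0724), and Tyms, thymidylate synthase, with a log2 fold change of 1.31 ± 0.36 (SE, adjusted p = 0.0789). Of 12 G1/S regulators tested, Ccne1 alone was called, and the number of calls was 2 without control 3 or KO library 1. Ccnd1, the D-type cyclin that growth factors induce, was at 67.0, 34.2, 48.6, 42.8 and 53.1 CPM in controls 1 to 5 and at 47.6, 63.9, 60.3, 44.4 and 83.6 CPM in KO libraries 1 to 5. Its groups overlapped, and the log2 fold change was 0.28 ± 0.24 (SE, adjusted p = 0.626).

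Mitotic cyclins, kinases and checkpoint genes had 6 higher and 1 lower of 20 tested and a median log2 fold change of 2.34. Calls in this list numbered 3 without KO library 2 and 4 without control 2, 4 or 5. Cyclin B2 (Ccnb2) was at 0.546, 0, 11.03, 0.0265 and 0.0626 CPM in controls 1 to 5 and at 19.8, 41.3, 24.1, 18.7 and 43.5 CPM in KO libraries 1 to 5. Control 3 was the highest control and lay below every KO library, with a log2 fold change of 4.65 ± 0.83 (SE, adjusted p = 0.00959). Cyclin A2 (Ccna2) was at 9.62, 0, 5.37, 0.0265 and 0 CPM in controls 1 to 5 and at 24.95, 29.5, 20.3, 39.6 and 74.4 CPM in KO libraries 1 to 5. Its control levels varied from 0 to 9.62 CPM, below the KO range, and the log2 fold change was 4.51 ± 0.91 (SE, adjusted p = 0.0190). Cdk1, the kinase that drives entry into mitosis, was at 10.1, 7.36, 12.6, 12.3 and 5.17 CPM in controls 1 to 5 and at 26.8, 54.4, 23.6, 27.95 and 51.6 CPM in KO libraries 1 to 5. KO levels of Cdk1 exceeded all controls, with a log2 fold change of 1.88 ± 0.37 (SE, adjusted p = 0.0153) that was lost without KO library 2 (adjusted p up to 0.0528). Survivin (Birc5), of the chromosomal passenger complex, rose from 0.774 ± 0.908 to 24.2 ± 21.8 CPM, a log2 fold change of 4.08 ± 0.77 (SE, adjusted p = 0.0129).

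Centromere and kinetochore genes had 6 higher of 15 tested and none lower, at a median log2 fold change of 1.92. Calls numbered 2 without control 2 or 4 or KO library 2 and 3 without KO library 1, 3 or 4. Cenpa, the histone H3 variant of the centromere, was at 0, 2.89, 0, 4.51 and 0 CPM in controls 1 to 5 and at 11.3, 25.5, 18.7, 21.2 and 65.5 CPM in KO libraries 1 to 5. KO library 5 was the highest, all KO libraries exceeded all controls, and the log2 fold change was 4.38 ± 0.81 (SE, adjusted p = 0.0112). Cenpf, a large kinetochore protein, was at 0.880, 0, 0, 0 and 0 CPM in controls 1 to 5 and at 12.98, 17.3, 6.67, 6.67 and 5.80 CPM in KO libraries 1 to 5, a log2 fold change of 3.96 ± 0.53 (SE, adjusted p = 0.00144). It was found in 1 of 5 controls and in every KO library. Among spindle and cytokinesis genes, 4 of 16 tested rose (median log2 fold change 2.79), and calls numbered 1 without KO library 2 and 2 without control 1 or 5 or KO library 1. Kif2c, a kinesin that takes microtubules apart, was at 4.91, 0, 0, 2.04 and 0 CPM in controls 1 to 5 and at 10.5, 26.2, 15.4, 22.5 and 29.98 CPM in KO libraries 1 to 5. Only controls 1 and 4 held any reads, and the log2 fold change was 4.17 ± 0.76 (SE, adjusted p = 0.0103). Hmmr, a hyaluronan receptor that binds the spindle, had a log2 fold change of 4.17 ± 0.85 (SE, adjusted p = 0.0194) and was lost without KO library 2 (adjusted p up to 0.0559).

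In the chromosome structure list, 2 of 14 tested genes rose, and the number of calls was 1 without KO library 2 and 4 without control 1. H2az1, the histone variant H2A.Z, was at 71.4, 96.1, 85.9, 75.9 and 74.2 CPM in controls 1 to 5 and at 143, 185, 158, 188 and 257 CPM in KO libraries 1 to 5. The groups were separate, and the log2 fold change was 1.18 ± 0.17 (SE, adjusted p = 0.00284). Hmgb2, a chromatin protein of dividing cells, had a log2 fold change of 1.64 ± 0.33 (SE, adjusted p = 0.0194), lost without KO library 2 (adjusted p up to 0.0513). Mki67, the antigen used to stain cycling cells, was at 7.73, 0, 0.459, 0.0530 and 0 CPM in controls 1 to 5 and at 4.86, 8.99, 15.1, 0.811 and 25.4 CPM in KO libraries 1 to 5. Its groups overlapped, with KO library 4 at the level of low controls, and the log2 fold change of 2.92 ± 0.97 (SE, adjusted p = 0.156) did not pass. Top2a, the mitotic topoisomerase, also overlapped, with controls at 31.1, 0, 27.8, 9.01 and 1.66 CPM and the KO at 37.0, 74.9, 31.8, 4.17 and 75.5 CPM, a log2 fold change of 2.36 ± 1.14 (SE, adjusted p = 0.363). Of 18 DNA repair genes tested, 2 rose. Brca1, of homologous recombination, was at 0.728, 0, 0, 0.0265 and 0 CPM in controls 1 to 5 and at 15.2, 6.65, 25.6, 6.82 and 8.04 CPM in KO libraries 1 to 5, and all KO values exceeded all controls with a log2 fold change of 4.22 ± 0.56 (SE, adjusted p = 0.00129). Brca2 had a log2 fold change of 2.86 ± 0.70 (SE, adjusted p = 0.0485) and was lost in each of the 10 leave-one-out fits (adjusted p up to 0.113), which left 1 call.

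Promoters of a pair of replication genes and a pair of mitotic genes are shown as examples. These genes were picked because they rose and carry E2F, CHR or CCAAT matches. Their matches therefore do not test whether the elements differ between the phases. Capitals mark matches, on either strand, to TTTNGCGC (an E2F site), TTTGAA (a CHR element) or CCAAT, and overlapping matches merge. Each sequence is the 250 bases before the RefSeq start site on GRCm38.p6, on the minus strand, written 5′ to 3′. Mcm6 (chr1:128359706-128359955) and Dtl (chr1:191575545-191575794) act in replication. Cdk1 (chr10:69352913-69353162) and Ccnb2 (chr9:70421555-70421804) act in mitosis.
Mcm6: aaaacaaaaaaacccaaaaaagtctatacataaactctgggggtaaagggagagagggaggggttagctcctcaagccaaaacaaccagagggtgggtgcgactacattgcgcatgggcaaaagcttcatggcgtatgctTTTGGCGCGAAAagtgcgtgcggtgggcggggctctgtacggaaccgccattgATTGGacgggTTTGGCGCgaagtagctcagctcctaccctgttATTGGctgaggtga
Dtl: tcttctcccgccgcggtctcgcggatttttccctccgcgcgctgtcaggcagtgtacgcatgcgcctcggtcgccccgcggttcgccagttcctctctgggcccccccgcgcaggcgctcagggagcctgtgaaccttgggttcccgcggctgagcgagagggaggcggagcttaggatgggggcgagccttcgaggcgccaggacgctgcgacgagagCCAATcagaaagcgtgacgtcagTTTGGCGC
Cdk1: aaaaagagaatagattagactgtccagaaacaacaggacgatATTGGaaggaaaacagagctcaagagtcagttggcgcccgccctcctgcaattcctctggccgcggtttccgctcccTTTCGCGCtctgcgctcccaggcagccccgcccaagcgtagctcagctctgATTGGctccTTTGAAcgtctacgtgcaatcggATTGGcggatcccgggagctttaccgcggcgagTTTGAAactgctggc
Ccnb2: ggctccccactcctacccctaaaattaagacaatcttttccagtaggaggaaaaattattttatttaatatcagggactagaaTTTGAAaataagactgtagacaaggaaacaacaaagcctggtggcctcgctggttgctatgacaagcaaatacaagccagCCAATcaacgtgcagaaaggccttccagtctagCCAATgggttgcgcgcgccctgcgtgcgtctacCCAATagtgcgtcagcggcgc

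The Mcm6 window held 3 E2F matches, a pair of them overlapping on opposite strands, and 2 CCAAT boxes. The Dtl window held 1 E2F match in the 8 bases next to the start and 1 CCAAT box. Neither window held a CHR match. Cdk1 had 1 E2F match, 2 CHR matches and 3 CCAAT boxes, and Ccnb2 had 1 CHR match and 3 CCAAT boxes, which lie 87, 54 and 21 bases before its start. E2F matches stood in 1.13% of all 32851 promoter windows of this length, CHR matches in 15.99% and CCAAT in 33.8%. Of the 31 cell cycle genes that rose, 28 had a promoter in the table, and 7 of these held an E2F match, 6 a CHR match and 21 a CCAAT match. Among all tested genes with a promoter in the table the shares were 2.47%, 13.1% and 40.8%. A match describes letters and does not show that a factor was bound.

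Genes that restrain the cycle did not show the same pattern. None of 15 tested cell cycle inhibitors was called, and their median log2 fold change was -0.05. Cdkn2c, an inhibitor of D-type cyclin kinases, had the smallest p, with a log2 fold change of 1.42 ± 0.47 (SE, adjusted p = 0.156), followed by Cdkn1c with a log2 fold change of -1.24 ± 0.55 (SE, adjusted p = 0.307). None of 12 tested p53 targets was called either, at a median of 0.04. Mdm2, which degrades p53, had a log2 fold change of 0.30 ± 0.22 (SE, adjusted p = 0.576), and Pmaip1, a death gene, a log2 fold change of 0.65 ± 0.45 (SE, adjusted p = 0.539).

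Rod photoreceptor transcripts, which apart from those of Gnb1 are typical of cells outside the sort gate, differed between the same libraries. How these transcripts entered the libraries was not tested. The 20 rod genes summed to 3268, 485, 681, 537 and 382 CPM in controls 1 to 5 and 788, 1096, 2680.1, 3132 and 4680.2 CPM in KO libraries 1 to 5. Control 1 was above KO library 4, so the groups overlapped. All 20 rod genes were tested, 1 rose, none fell, and the median log2 fold change was 1.78. The gene that rose was Gnb1, a G protein subunit found in many cells, with a log2 fold change of 1.36 ± 0.22 (SE, adjusted p = 0.00455). It is named after its value was seen, and the number of calls was 2 without control 1. Gnb1 lay at 181 to 292 CPM in controls and 364 to 879 CPM in the KO. It is part of the rod sums, so these do not hold rod RNA alone. The cell cycle sum was 2189.9 CPM in control 1, which had the highest rod sum of the controls, and 4165 and 4984 CPM in KO libraries 1 and 2, which had the lowest rod sums of the KO. The 32 calls in the cell cycle lists became 9 under the rod covariate. The part of rod RNA in the cell cycle differences was not tested further.

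**Figure D3:**
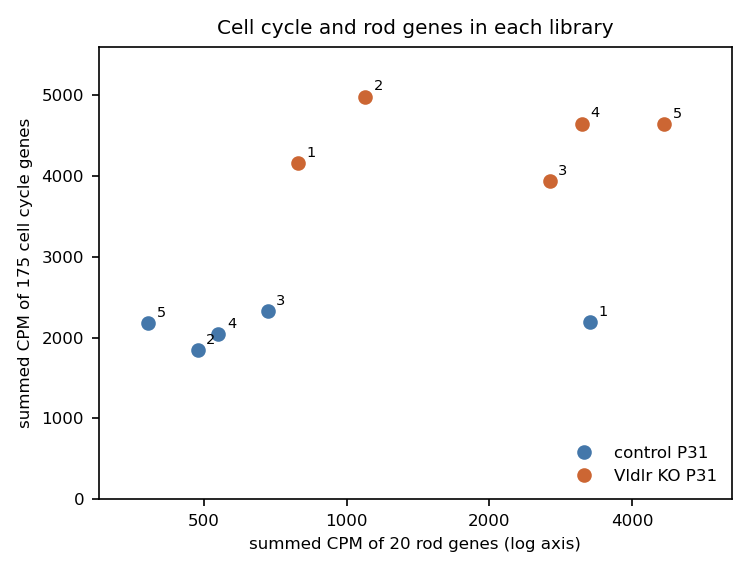
Summed CPM of 175 cell cycle genes against summed CPM of 20 rod genes (log axis), 1 point per library, numbered by replicate. The 20 rod genes include Gnb1, which is found in many cells. KO libraries lie between 3936 and 4984 CPM of cell cycle genes at low and high rod levels, and control 1 lies with the other controls at a high rod level. A link between these sums was not tested.

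Of 27 tested genes of homeostatic microglia, 1 rose, 5 fell and 21 missed the threshold, with a median log2 fold change of -0.12. The number of calls was 3 without control 3, and without KO libraries 4 and 5 it was 4. P2ry12 was at 12217, 10795, 11115, 11221 and 9668 CPM in controls 1 to 5 and at 12914, 9558, 11151, 12380.4 and 12514 CPM in KO libraries 1 to 5. Tmem119, a surface marker of microglia, was at 3792, 5569, 5701, 5731 and 4430.0 CPM in controls 1 to 5 and at 4681, 4658, 5366, 4313 and 4954 CPM in KO libraries 1 to 5. Both overlapped between groups, at log2 fold changes of 0.08 ± 0.09 (SE, adjusted p = 0.702) and -0.06 ± 0.12 (SE, adjusted p = 0.857). Csf1r, the receptor for the main survival factor of microglia, had a log2 fold change of -0.12 ± 0.14 (SE, adjusted p = 0.744), with KO libraries 4 and 5 at 11741 and 11521 CPM, below the other 3 and every control. Cx3cr1, the fractalkine receptor, was at 4589, 4382, 4852, 4632 and 4333 CPM in controls 1 to 5 and at 4220.4, 3973, 3667, 3338 and 3381 CPM in KO libraries 1 to 5. The Cx3cr1 groups did not overlap, yet the log2 fold change of -0.30 ± 0.08 (SE, adjusted p = 0.0650) did not pass.

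P2ry13, Fcrls and Selplg were, with Slc2a5, among the homeostatic genes that fell. P2ry13, an ADP receptor next to P2ry12, was at 4654, 4652, 4268, 4119 and 3514 CPM in controls 1 to 5 and at 3117, 2248, 2373, 2410.0 and 2328 CPM in KO libraries 1 to 5. KO levels were lower throughout, with KO library 1 the highest, and the log2 fold change was -0.77 ± 0.11 (SE, adjusted p = 0.00186). Fcrls, an Fc receptor-like gene, had a log2 fold change of -0.55 ± 0.11 (SE, adjusted p = 0.0193), lost without control 3 or KO library 3 (adjusted p up to 0.0685). Selplg, a selectin ligand named after its value was seen, had a log2 fold change of -0.44 ± 0.11 (SE, adjusted p = 0.0437), lost without control 2, 3, 4 or 5 or KO library 1, 2, 4 or 5 (adjusted p up to 0.122). Sparc, a secreted matrix protein, was at 3916, 3888, 4878, 4385 and 3993 CPM in controls 1 to 5 and at 6509, 7048, 6751, 6545 and 7441 CPM in KO libraries 1 to 5. Every KO library held more Sparc than any control, a log2 fold change of 0.71 ± 0.08 (SE, adjusted p = 3.42e-04).

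The list of disease-associated microglia, genes that rise in microglia near damage, changed in both directions: 7 of 31 tested were higher, 3 were lower and 21 did not pass, at a median log2 fold change of 0.23. The number of calls was 5 without KO library 2, and without KO libraries 4 and 5 it was 4 higher and 5 lower. Clec7a, the beta-glucan receptor dectin-1, was at 252, 274, 191, 246 and 238 CPM in controls 1 to 5 and at 33.0, 22.6, 26.1, 51.6 and 34.4 CPM in KO libraries 1 to 5. Although it belongs to this list, it was lower in every KO library, with a log2 fold change of -2.87 ± 0.22 (SE, adjusted p = 2.89e-05). Fabp5, a carrier of fatty acids, was at 3.12, 2.78, 2.49, 3.74 and 15.7 CPM in controls 1 to 5 and at 48.6, 62.3, 102, 37.6 and 108 CPM in KO libraries 1 to 5. It rose in every KO library, a log2 fold change of 3.804 ± 0.50 (SE, adjusted p = 0.00137). Serpine2, a protease inhibitor, was at 1400.2, 1658, 1773, 1837 and 1423 CPM in controls 1 to 5 and at 3312, 2328, 3189.7, 2669 and 3256 CPM in KO libraries 1 to 5, with a log2 fold change of 0.86 ± 0.12 (SE, adjusted p = 0.00186). Timp2, an inhibitor of matrix proteases, fell from 1173 ± 131 to 782 ± 69.0 CPM, a log2 fold change of -0.58 ± 0.10 (SE, adjusted p = 0.00776).

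Apoe, the main lipid carrier that microglia secrete, was at 555, 2561, 928, 1121 and 1218 CPM in controls 1 to 5 and at 3341, 3884, 4566, 2127 and 3980.5 CPM in KO libraries 1 to 5. Control 2 overlapped the KO range, and the log2 fold change of 1.62 ± 0.33 (SE, adjusted p = 0.0205) was lost without control 3 or 4 or KO library 2 or 3 (adjusted p up to 0.0540). Spp1, osteopontin, was at 0.212, 3.75, 17.6, 7.53 and 58.3 CPM in controls 1 to 5 and at 47.5, 257, 735, 136 and 404 CPM in KO libraries 1 to 5. It varied widely within both groups, with a log2 fold change of 4.84 ± 1.04 (SE, adjusted p = 0.0257), and was lost without control 2 or 4 or KO library 2, 3 or 5 (adjusted p up to 0.0682). Gpnmb, a lysosomal membrane protein that was chosen after its value was seen, was at 24.02, 0, 0.0484, 0 and 12.8 CPM in controls 1 to 5 and at 20.8, 126, 187, 23.3 and 163 CPM in KO libraries 1 to 5. Controls 1 and 5 overlapped the KO libraries, and the log2 fold change of 5.08 ± 1.21 (SE, adjusted p = 0.0432) was lost without control 2, 3 or 4 or KO library 2, 3, 4 or 5 (adjusted p up to 0.106). Lyz2, a lysozyme named after its value was seen, and Cd63, a vesicle tetraspanin, had log2 fold changes of 0.59 and 0.64. Lyz2 was lost without KO library 2 (adjusted p up to 0.0513), and Cd63 without control 3 or KO library 2 (adjusted p up to 0.0548). Trem2, the lipid-sensing receptor upstream of this program, had a log2 fold change of -0.41 ± 0.13 (SE, adjusted p = 0.127) and did not pass.

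The interferon response and class I antigen presentation lists held lower and no higher genes, while Ifi202b of the interferon-inducible p200 family rose. Of 40 tested interferon response genes, none rose, 5 fell (Rtp4, Sp100, Lgals3bp, Rsad2 and Ifitm3) and 35 did not pass. Their median log2 fold change was -1.003, with 3 of 40 values above 0. The list summed to 1819 to 2848 CPM in controls and 1240.3 to 1445 CPM in the KO, without overlap. The count of calls was 3 without control 1, 2, 3, 4 or 5 or KO library 3, 3 without both KO libraries 4 and 5, 2 among the Xist-positive libraries, 1 with the rod covariate, 3 by edgeR and 11 by DESeq2.

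Rtp4, an interferon-induced chaperone of receptors, was at 67.6, 109.7, 69.2, 68.6 and 41.9 CPM in controls 1 to 5 and at 23.3, 15.2, 27.3, 21.3 and 23.9 CPM in KO libraries 1 to 5. The highest KO library was below the lowest control, with a log2 fold change of -1.62 ± 0.27 (SE, adjusted p = 0.00632). Sp100, a nuclear body protein, was at 70.9, 73.2, 83.6, 93.5 and 47.9 CPM in controls 1 to 5 and at 29.9, 28.05, 33.0, 10.2 and 15.3 CPM in KO libraries 1 to 5. Its KO levels were lowest in libraries 4 and 5, and the log2 fold change was -1.74 ± 0.34 (SE, adjusted p = 0.0156). Lgals3bp, a secreted glycoprotein, had a log2 fold change of -1.03 ± 0.20 (SE, adjusted p = 0.0174) and was lost without control 2 or KO library 3 (adjusted p up to 0.0506). Rsad2, the antiviral enzyme viperin, was at 47.0, 15.7, 33.0, 33.6 and 32.7 CPM in controls 1 to 5 and at 2.57, 13.9, 0, 0 and 0 CPM in KO libraries 1 to 5. KO library 2 came close to the lowest control, and the log2 fold change of -4.47 ± 0.91 (SE, adjusted p = 0.0196) was lost without control 1, 3, 4 or 5 (adjusted p up to 0.0536). Ifitm3, which blocks virus entry and is named after its value was seen, had a log2 fold change of -1.34 ± 0.33 (SE, adjusted p = 0.0459), lost without control 1, 2, 3, 4 or 5 or KO library 1, 2, 3 or 4 (adjusted p up to 0.118). Outside the list, the immunity-related GTPases Irgm2 and Igtp, chosen after their values were seen, had a log2 fold change of -1.77 ± 0.24 (SE, adjusted p = 0.00139) and -1.41 ± 0.18 (SE, adjusted p = 0.00103). Their exons overlap on 1 strand, so reads of the pair cannot be told apart. Irf5, a transcription factor of inflammatory and interferon genes, also chosen after its value was seen, fell from 531 ± 68.6 to 334 ± 39.2 CPM, a log2 fold change of -0.66 ± 0.12 (SE, adjusted p = 0.0115).

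Of 20 tested genes of class I presentation, none rose and 6 fell, at a median log2 fold change of -0.61. Without KO libraries 4 and 5, 4 fell, and with the rod covariate 3. H2-T23, the non-classical molecule Qa-1, was at 309.9, 371, 321, 278 and 298 CPM in controls 1 to 5 and at 77.6, 85.0, 83.8, 95.3 and 119 CPM in KO libraries 1 to 5. KO levels did not reach those of any control, and the log2 fold change was -1.78 ± 0.15 (SE, adjusted p = 4.11e-05). H2-M3, which presents formylated peptides, fell from 103 ± 17.7 to 42.7 ± 12.7 CPM, a log2 fold change of -1.28 ± 0.22 (SE, adjusted p = 0.00734). The classical molecules H2-D1 and H2-K1 had a log2 fold change of -0.83 ± 0.14 (SE, adjusted p = 0.00800) and -0.75 ± 0.13 (SE, adjusted p = 0.00959). B2m, the light chain they share, named like Tap2 after its value was seen, was at 4909.8, 3410.0, 4554, 3436 and 3971 CPM in controls 1 to 5 and at 2606, 2590.2, 2459, 2843 and 2973 CPM in KO libraries 1 to 5. All KO libraries lay below all controls, with a log2 fold change of -0.58 ± 0.11 (SE, adjusted p = 0.0131). The peptide transporter gene Tap2 had a log2 fold change of -0.85 ± 0.21 (SE, adjusted p = 0.0481) and was lost without control 1, 2, 3, 4 or 5 or KO library 1, 3, 4 or 5 (adjusted p up to 0.1202). Class I heavy chain genes are similar in sequence, so their single values are uncertain.

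Class II genes moved in both directions, with 1 higher and 2 lower of 11 tested, and the number of calls was 5 without KO library 5. H2-DMa, 1 chain of the peptide exchange factor, was at 339, 353, 467, 419 and 407 CPM in controls 1 to 5 and at 156, 196, 180.0, 219 and 207 CPM in KO libraries 1 to 5. Levels in the KO were lower without overlap, with a log2 fold change of -1.05 ± 0.13 (SE, adjusted p = 9.75e-04). H2-Ob, of the molecule that inhibits this exchange, had a log2 fold change of -1.10 ± 0.21 (SE, adjusted p = 0.0126). Cd74, the invariant chain, was at 94.5, 88.8, 53.9, 45.6 and 66.5 CPM in controls 1 to 5 and at 186, 125, 168, 182 and 125 CPM in KO libraries 1 to 5. It rose in the KO with a log2 fold change of 1.197 ± 0.23 (SE, adjusted p = 0.0135).

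Within the p200 family of interferon-inducible nuclear proteins, 10 genes were tested. Ifi202b rose from 0, and Ifi204 and Ifi209 fell, at a median log2 fold change of -1.76. Ifi204 was at 89.7, 85.5, 62.3, 57.2 and 35.3 CPM in controls 1 to 5 and at 4.03, 7.86, 3.39, 0.330 and 0 CPM in KO libraries 1 to 5. Ifi209 was at 66.7, 25.3, 39.8, 33.1 and 34.6 CPM in controls 1 to 5 and at 4.03, 4.42, 3.58, 0.570 and 7.02 CPM in KO libraries 1 to 5. Both were low in every KO library, with a log2 fold change of -4.80 ± 0.72 (SE, adjusted p = 0.00343) and -3.36 ± 0.52 (SE, adjusted p = 0.00405), while reads shared between these similar genes make single values uncertain. Of 14 co-stimulation and checkpoint ligands tested, 3 fell and none rose. Tnfsf13b, the B cell survival factor BAFF, fell from 138 ± 34.2 to 57.7 ± 21.7 CPM, a log2 fold change of -1.28 ± 0.24 (SE, adjusted p = 0.0134). Lair1, an inhibitory collagen receptor, had a log2 fold change of -0.58 ± 0.11 (SE, adjusted p = 0.0136). Havcr2, the receptor TIM-3, had a log2 fold change of -0.57 ± 0.13 (SE, adjusted p = 0.0307) and was lost without control 1, 2, 3 or 5 or KO library 2, 3, 4 or 5 (adjusted p up to 0.0825).

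Of 20 pattern recognition receptors tested, 2 fell, Clec7a and Tlr3, and none rose. Tlr3, the receptor for double-stranded RNA, had a log2 fold change of -1.18 ± 0.28 (SE, adjusted p = 0.0408), lost without control 1, 2, 3, 4 or 5 or KO library 1, 2 or 4 (adjusted p up to 0.102), so that Clec7a was then the 1 call. Among 19 tested phagocytic receptors and their ligands, 1 rose and 3 fell. Mrc2 and Pear1 were among the genes with the largest falls. Fcgr4, an activating IgG receptor, was at 128, 152, 108, 95.4 and 115 CPM in controls 1 to 5 and at 47.3, 38.5, 52.2, 70.8 and 38.5 CPM in KO libraries 1 to 5. It was lower in every KO library, with a log2 fold change of -1.29 ± 0.21 (SE, adjusted p = 0.00534). Gas6, the ligand that joins dying cells to the receptors Mertk and Axl, was at 144, 176, 179.7, 201 and 160.3 CPM in controls 1 to 5 and at 306, 432, 357, 256 and 309.8 CPM in KO libraries 1 to 5. KO values were higher without overlap, with a log2 fold change of 0.93 ± 0.15 (SE, adjusted p = 0.00556).

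**Figure D4:**
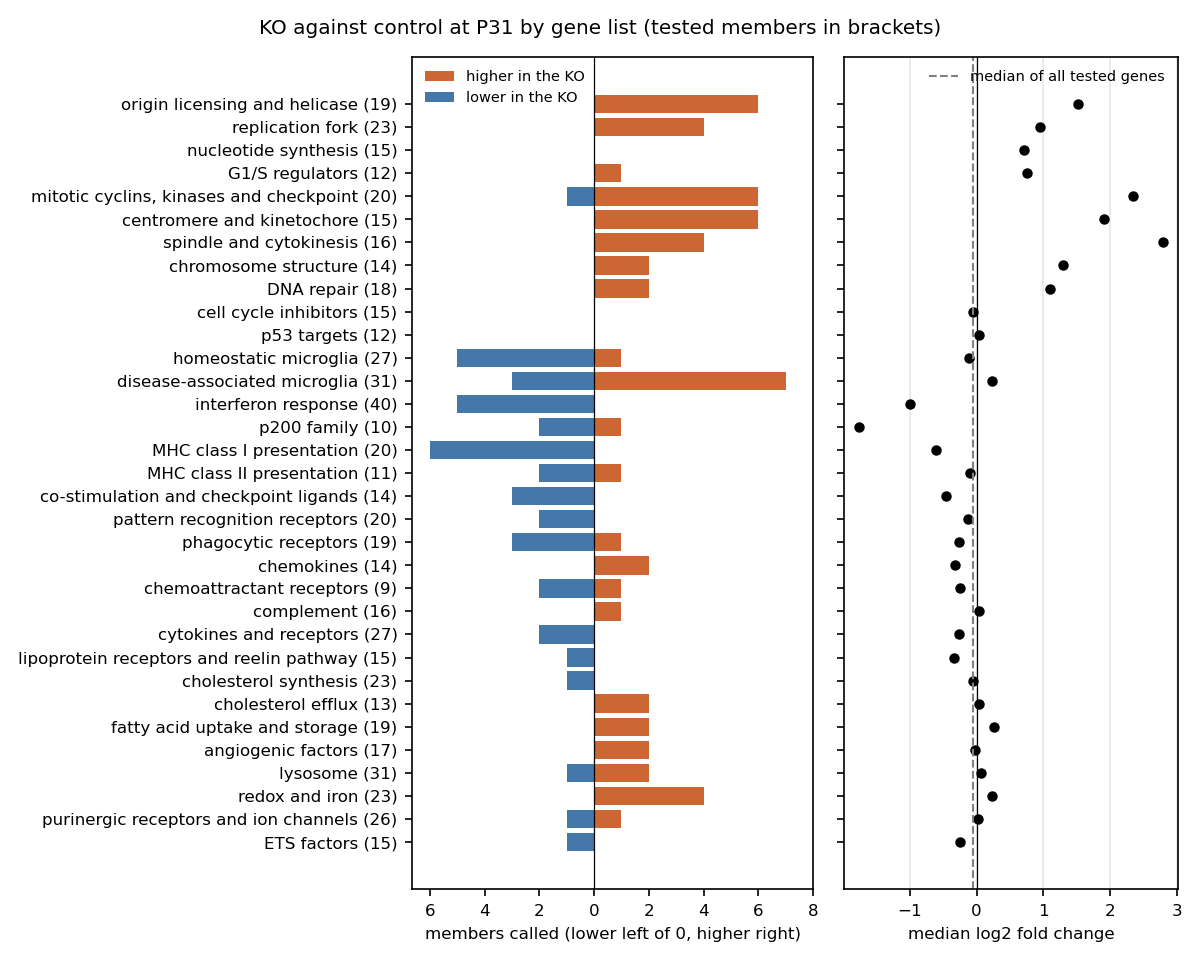
Number of members called higher (right of 0) and lower (left of 0) in the KO, and median log2 fold change of tested members, for the 33 lists described here, with tested members in brackets and a dashed line at the median of all tested genes. The 9 cell cycle lists have medians between 0.71 and 2.79, and the interferon response and p200 lists have medians of -1.003 and -1.76.

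Ccr6 and Cxcl13, a chemokine receptor and a chemokine, were among the genes with the largest rises. Of 14 tested chemokines, 2 rose, Cxcl13 and Ccl12, and the number of calls was 1 without control 2 or 4 or KO library 2 or 4. Ccl12, which attracts monocytes, was at 371, 256, 313, 233 and 170.2 CPM in controls 1 to 5 and at 517, 537, 427, 617 and 388 CPM in KO libraries 1 to 5. Its log2 fold change of 0.92 ± 0.20 (SE, adjusted p = 0.0290) was lost without control 2 or 4 or KO library 1, 2 or 4 (adjusted p up to 0.0759). Among 9 chemoattractant receptors tested, Ccr6 rose, and 2 fell, Ccr1 among them. Ccr1 was at 9.31, 80.6, 39.8, 23.9 and 11.1 CPM in controls 1 to 5 and at 4.44, 5.50, 0, 0.811 and 0 CPM in KO libraries 1 to 5, and its log2 fold change of -3.97 ± 0.87 (SE, adjusted p = 0.0289) was lost without control 2, 3 or 4 or KO library 3, 4 or 5 (adjusted p up to 0.0787). Receptor calls numbered 1 without control 2, 3 or 4 or KO library 3 or 5. Of 16 complement genes tested, C4b alone was called, and the number of calls was 2 without KO library 1. C4b, of the classical pathway, was at 5.61, 13.7, 20.9, 31.6 and 16.6 CPM in controls 1 to 5 and at 80.7, 141, 72.8, 61.9 and 52.2 CPM in KO libraries 1 to 5. All KO libraries exceeded all controls, with a log2 fold change of 2.28 ± 0.42 (SE, adjusted p = 0.0112).

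In the list of cytokines and their receptors, 2 of 27 tested genes fell, Il10ra and Tnfrsf1b, receptor chains for interleukin 10 and tumour necrosis factor. Their log2 fold changes were -0.63 ± 0.14 (SE, adjusted p = 0.0370) and -0.84 ± 0.19 (SE, adjusted p = 0.0380). Il10ra was lost without control 2, 3, 4 or 5 or KO library 1, 2, 4 or 5 (adjusted p up to 0.105). Tnfrsf1b was lost without control 1, 2, 3 or 4 or KO library 2, 4 or 5 (adjusted p up to 0.0982). Calls in this list numbered 0 without control 2, 3 or 4 or KO library 2, 4 or 5 and 1 without control 1 or 5 or KO library 1. Outside the list and chosen after its value was seen, Il6st, the signal chain of the interleukin 6 receptor family, fell from 1007 ± 52.0 to 451 ± 151 CPM, a log2 fold change of -1.22 ± 0.19 (SE, adjusted p = 0.00359). Pdcd1, the checkpoint receptor PD-1, was at 65.8, 52.2, 94.3, 63.7 and 89.3 CPM in controls 1 to 5 and at 194, 256, 228, 249.8 and 234 CPM in KO libraries 1 to 5. Pdcd1 was also chosen after its values were seen, and it rose in every KO library, with a log2 fold change of 1.69 ± 0.18 (SE, adjusted p = 3.18e-04).

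In the pathway of Vldlr itself, 1 of 15 tested lipoprotein receptor and Reelin pathway genes was called. With 3.18% of all tested genes called, 1 or 2 calls in a list of this size are near the background and describe those genes, not the list. Crk, an adaptor that acts downstream of Dab1, fell from 213 ± 30.4 to 131 ± 18.4 CPM, a log2 fold change of -0.70 ± 0.15 (SE, adjusted p = 0.0226), and was lost without control 2, 3 or 4 or KO library 2, 4 or 5 (adjusted p up to 0.0700). Likewise 1 of 23 cholesterol synthesis genes tested was lower, Cyp51, a lanosterol demethylase, with a log2 fold change of -1.17 ± 0.24 (SE, adjusted p = 0.0196), lost without control 1 or 4 or KO library 2 or 3 (adjusted p up to 0.0582). Of 13 cholesterol efflux genes tested, Apoe and Apoc1 rose, and the number of calls was 1 without control 3 or 4 or KO library 2 or 3. Apoc1 was at 0, 4.46, 0, 0.742 and 3.22 CPM in controls 1 to 5 and at 24.05, 45.2, 28.02, 40.7 and 29.4 CPM in KO libraries 1 to 5. The highest control held less Apoc1 than the lowest KO library. Fatty acid uptake and storage had 2 higher genes of 19 tested, Fabp5 and Dgat2. Dgat2, which makes triglyceride for lipid droplets, was at 3.70, 0, 3.17, 0 and 0 CPM in controls 1 to 5 and at 16.9, 11.4, 32.5, 36.4 and 12.9 CPM in KO libraries 1 to 5. Controls 2, 4 and 5 held none, and the log2 fold change was 4.15 ± 0.77 (SE, adjusted p = 0.0121).

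Because the knockout is studied for its vessels, a list of angiogenic factors and their receptors was examined. Of 17 tested, Angptl7 and Spp1 rose, none fell, and the number of calls was 1 without control 4 or KO library 2, 3 or 5. Angptl7 was at 4.94, 0.0378, 7.55, 0 and 5.48 CPM in controls 1 to 5 and at 107, 87.9, 151, 138 and 100.3 CPM in KO libraries 1 to 5. It was at 7.55 CPM or less in controls and at 87.9 CPM or more in the KO. Vegfa, the main endothelial growth factor, was at or below 0.605 CPM in controls and had reads in 1 KO library, library 4, at 4.68 CPM, so it was not tested. Serpinf1, the anti-angiogenic factor PEDF, was chosen after its value was seen. It was at 69.0, 87.4, 91.7, 86.0 and 52.9 CPM in controls 1 to 5 and at 412, 333, 445, 341 and 318 CPM in KO libraries 1 to 5, a rise in every KO library with a log2 fold change of 2.26 ± 0.18 (SE, adjusted p = 3.11e-05).

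Of 31 tested lysosome genes, 2 rose, Ctse and Cd63, and Lrba fell. Ctse, cathepsin E, was at 6.98, 10.6, 6.02, 23.01 and 11.1 CPM in controls 1 to 5 and at 117, 160.1, 229, 116 and 94.0 CPM in KO libraries 1 to 5. The KO group was entirely above the controls, with a log2 fold change of 3.66 ± 0.36 (SE, adjusted p = 1.93e-04). In the redox and iron list, 4 of 23 tested rose, Slc40a1, Prdx1, Ftl1 and Gclc, and none fell, and the number of calls was 1 without control 4 and 2 without control 1 or 5 or KO library 2, 4 or 5. Slc40a1, the iron exporter ferroportin, was at 273, 240.5, 309, 280.4 and 234 CPM in controls 1 to 5 and at 596, 391, 731, 570.0 and 547 CPM in KO libraries 1 to 5. The groups did not overlap, with a log2 fold change of 1.06 ± 0.16 (SE, adjusted p = 0.00278). Prdx1, a peroxidase, had a log2 fold change of 0.55, lost without control 2 or 4 (adjusted p up to 0.0588). Ftl1, ferritin light chain, had a log2 fold change of 0.84, lost without control 1, 4 or 5 or KO library 2, 4 or 5 (adjusted p up to 0.0692). Gclc, which starts glutathione synthesis, had a log2 fold change of 0.76, lost without control 1, 2, 3, 4 or 5 or KO library 2, 3, 4 or 5 (adjusted p up to 0.114). Mgst1, a glutathione transferase chosen after its values were seen, had 0 reads in all controls and 8.22, 10.5, 14.9, 3.66 and 5.57 CPM in the KO, at least 109-fold higher (limma adjusted p = 5.56e-04).

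Among 26 tested purinergic receptors and ion channels, Kcnj10 rose and P2ry13 fell. Kcnj10, the potassium channel Kir4.1 of glia, was at 1.12, 4.58, 9.70, 2.76 and 2.66 CPM in controls 1 to 5 and at 53.9, 46.0, 25.6, 17.2 and 30.5 CPM in KO libraries 1 to 5, with a log2 fold change of 3.07 ± 0.53 (SE, adjusted p = 0.00719). Slc1a3, Apoe and Kcnj10 are on the list of Müller glia and astrocyte markers, where 3 of 7 tested genes rose and none fell. That list summed to 849.6 to 2896 CPM in controls and 4540.4 to 7142 CPM in the KO. Of its other 12 members, Glul lay at 186 to 272 CPM in controls and 234 to 375 CPM in the KO, Vim at 6.04 to 16.99 CPM in controls and 7.36 to 18.6 CPM in the KO, Clu at 1.33 to 11.2 CPM in controls and 1.56 to 20.5 CPM in the KO and Rlbp1 at 4.82 to 16.2 CPM in controls and 1.83 to 8.18 CPM in the KO. The highest KO and the highest control values in CPM were, for members with 0 reads in some libraries, Car14 at 6.85 and 0.0567, Gfap at 2.76 and 0.159, S100b at 2.26 and 0.394, Aldh1l1 at 1.53 and 0, Aqp4 at 0.0542 and 12.5, Dkk3 at 0.0300 and 11.2, Sox9 at 0 and 1.72 and Pax2 at 0 and 0.0303. The maximum was thus higher in the KO for Glul, Vim, Clu, Car14, Gfap, S100b and Aldh1l1 and higher in controls for Rlbp1, Aqp4, Dkk3, Sox9 and Pax2. The part of other glia in the rise of Slc1a3, Apoe and Kcnj10 was not tested. Of 15 ETS factors tested, Ets1 alone was called.

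Further genes were chosen after their values were seen because they changed with little spread. Hebp1, a heme-binding protein, was at 16.8, 12.3, 5.44, 6.20 and 18.8 CPM in controls 1 to 5 and at 158, 196, 191, 164 and 238 CPM in KO libraries 1 to 5, with a log2 fold change of 4.08 ± 0.34 (SE, adjusted p = 4.57e-05). Treml4, a receptor of the TREM family, had 0 reads in every control and 4.997, 4.32, 6.39, 5.86 and 10.1 CPM in the KO, at least 80.5-fold higher (limma adjusted p = 3.49e-04). Igsf8, a tetraspanin partner, was at 119, 110.0, 96.9, 114 and 126 CPM in controls 1 to 5 and at 329.7, 328, 387, 265 and 277 CPM in KO libraries 1 to 5, with a log2 fold change of 1.48 ± 0.14 (SE, adjusted p = 1.00e-04). Tmsb4x, which binds actin monomers, was at 7840.5, 7917, 7927, 7777 and 7440.1 CPM in controls 1 to 5 and at 10494, 11616, 10665, 15251 and 16164 CPM in KO libraries 1 to 5. KO libraries 4 and 5 were the highest, and the log2 fold change was 0.70 ± 0.12 (SE, adjusted p = 0.00611). Exons of Hebp1 and Igsf8 each overlap a gene on the other strand, and Tmsb4x has near copies elsewhere in the genome, so shared reads make these values uncertain.

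The P31 differences were set beside those at P17, whose libraries are separate. At P17, 216 genes were called (1.47% of 14678), and 129 genes were called at both ages in the same direction, 32.8% of the P31 calls and 59.7% of the P17 calls. None was called in opposite directions. Of the 30 genes with the largest P31 differences, 18 were also called at P17. Slc1a3 had a log2 fold change of 4.80 at P17 (limma adjusted p = 2.06e-12) and Ccr6 of 6.44 (limma adjusted p = 5.38e-08). Serinc3 and Slc2a5 had -1.87 and -4.83 (limma adjusted p = 1.57e-05 and 8.15e-04). For these 4 genes the difference between the ages did not pass, with log2 values of -0.11, 0.49, -1.07 and -1.25.

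None of the 32 cell cycle genes called at P31 was called at P17, where 1 of 171 tested fell, 0 rose and the median log2 fold change was 0.17. The same 22-library fit called 37 cell cycle genes higher and 1 lower at P31. The difference of the KO effects itself, tested over all 22 libraries, was called for 8 genes (0.0545% of 14678), with 1251 at an unadjusted p under 0.05, and edgeR called 3. The 8 were Mcm6, Dtl and Brca1 of the cell cycle lists, Ets1, Rims2, Cxcl13, 2610318N02Rik and BC018473. The median difference over the cell cycle genes was 1.26 on the log2 scale. Called for the difference in all 22 fits that left out 1 library were Mcm6, Ets1, Brca1 and Rims2. Rod genes also had opposite signs at the ages, their median KO effect being -1.88 (log2) at P17 and 1.78 at P31. With the rod covariate, only Mcm6 was called (limma adjusted p = 0.00201). The count fell to 4 when P17 control 2, 3 or 4 or P31 control 1 was left out, to 5 when P17 KO library 4, P31 KO library 1, P31 KO library 4, P31 control 4 or P31 control 5 was left out, and reached 12 at most.

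Mcm6 was at 45.3 ± 16.2 CPM in P17 controls (SD, n = 7) and 21.7 ± 5.99 in the P17 KO (SD, n = 5). Its log2 fold change at P17 was -1.01 (limma adjusted p = 0.0945), which did not pass, and with the rise at P31 the difference was 3.40 ± 0.43 (SE, adjusted p = 5.40e-04). Brca1 was at 0.248 ± 0.657 CPM in P17 controls (SD, n = 7) and 0.177 ± 0.396 in the P17 KO (SD, n = 5), and the difference was 4.16 ± 0.66 (SE, adjusted p = 0.00640). Ets1 was at 190.1 ± 33.3 CPM in P17 controls (SD, n = 7) and 65.7 ± 44.1 in the P17 KO (SD, n = 5). It fell at both ages, at P17 with a log2 fold change of -1.77 (limma adjusted p = 0.0341), and the difference was -4.91 ± 0.64 (SE, adjusted p = 5.40e-04). Rims2, a synaptic protein chosen after its values were seen, was at 0.485, 0, 0, 0 and 0 CPM in controls 1 to 5 and at 8.57, 1.41, 4.90, 11.4 and 15.01 CPM in KO libraries 1 to 5 at P31. It was at 4.31 ± 3.81 CPM in P17 controls (SD, n = 7) and 0.139 ± 0.179 in the P17 KO (SD, n = 5), with a difference of 5.91 ± 0.93 (SE, adjusted p = 0.00640). Dtl had a difference of 4.56 ± 0.82 (SE, adjusted p = 0.0267) and was called in 11 of 22 fits, missing when any of P17 controls 2 to 4, P17 KO libraries 4 and 5, P31 controls 1, 2, 4 and 5 or P31 KO libraries 1 and 4 was left out (adjusted p up to 0.0701). Cxcl13 had a difference of 3.95 ± 0.74 (SE, adjusted p = 0.0333) and was called in 6 of 22 fits (adjusted p up to 0.106), namely those without P17 control 5, P17 KO library 3 or 5, or P31 KO library 2, 3 or 5. The genes 2610318N02Rik and BC018473, chosen after their values were seen, had differences of 2.86 and -3.28 and were called in 12 and 6 of 22 fits. The first missed it when any of P17 controls 2 to 4, P17 KO libraries 4 and 5, P31 controls 1, 2, 4 and 5 or P31 KO library 4 was left out (adjusted p up to 0.0742). The second passed only without P17 control 5 or P17 KO library 1, 2, 3, 4 or 5 (adjusted p up to 0.0679).

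**Figure D5:**
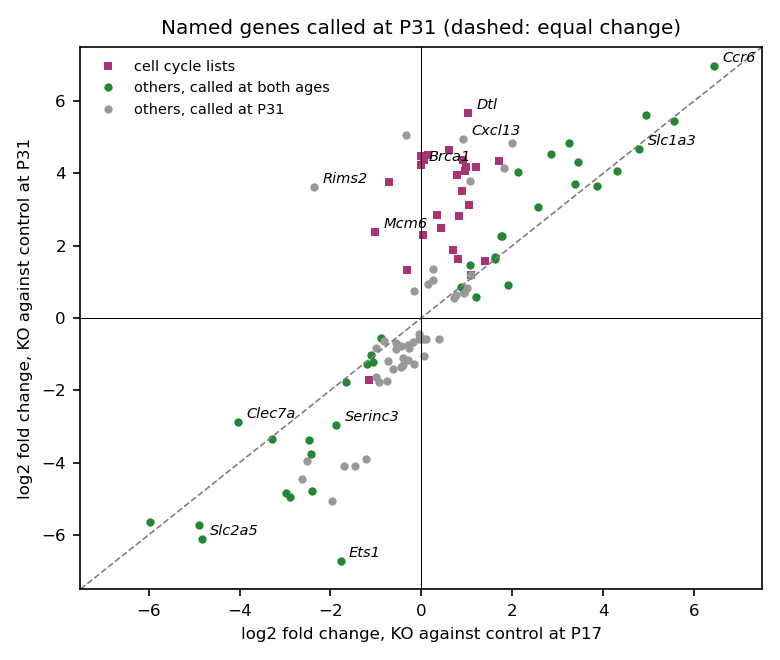
Log2 fold change of KO against control at P31 against that at P17 for the 109 named genes called at P31; squares are 26 cell cycle genes, green points 38 other genes called at both ages and grey points 45 others, with a dashed line of equal change. Genes were chosen by their P31 call, which favours larger P31 values; Slc1a3, Ccr6 and Slc2a5 lie near the line, and the cell cycle genes other than Pttg1 lie above it.

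Called genes were spread unevenly over the chromosomes. The share called was 5.70% of 719 tested genes on chromosome 4, 4.70% on chromosome 6, 4.61% on chromosome 1 and 4.54% on chromosome 17, and lowest, 0.969%, on chromosome 14. In windows of 10 Mb with at least 20 tested genes, 53 of 214 had no call and 7 had more than 10% called. These 7 windows held 54 called genes of 394 tested, and 22 of the 54 were also called at P17 in the same direction. Among these was chromosome 1 from 170 to 180 Mb, with 13 of 88 called, among them Ifi202b, Ifi204, Ifi209, Kcnj10, Igsf8, Fcgr4 and Slamf1. On chromosome 15 from 0 to 10 Mb, 5 of 30 were called, Slc1a3 and Ranbp3l among them, and on chromosome 17 from 0 to 10 Mb, 6 of 34, including Ccr6. Chromosome 4 from 140 to 150 Mb held 11 of 70, with Angptl7, Zfp984 and Fblim1. Within 10 Mb of Vldlr on chromosome 19, 1 of 69 tested genes was called. The strain background of the animals is not given, and its part in these runs of called neighbours was not tested. Of 386 processed pseudogenes tested, 34 rose and 2 fell, and reads shared with their parent genes make these values uncertain.

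The authors' deposited table gives its own adjusted p-values for this comparison. By those, 797 genes were called, 472 higher and 325 lower, in the authors' deposited table. Of the 393 genes called here, 280 were also called in the same direction in the authors' deposited table.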

How the data were processed

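Reads of retinal microglia were mapped to mm10 with STAR 2.7.5b and assigned to genes with featureCounts, per the submitters' processing notes, which also name FastQC 0.72, R 3.5.3 and DESeq2 1.22.2. The deposited signal values are gene reads divided by 1 size factor per library, and the authors' table also holds log2 fold changes and adjusted p-values, used here only where named. All 349420 non-zero values were whole multiples of the value of 1 read (100.0%, relative tolerance 1e-06), so whole reads were recovered. These were TMM-scaled to CPM with edgeR 4.0.16 and tested with limma 3.58.1 (R 4.3.3, trend and robust moderation) on log2(CPM + 0.5) of the 10 P31 libraries, for genes with at least 10 reads in at least 5 libraries, with Benjamini-Hochberg adjustment. The P17 effects and the difference of the KO effects between the ages were fitted over 22 libraries with 4 group means. P17 libraries were left out of the main fit because a P17 library was known to have an unusual deposited size factor. It widens the spread shared by the 22-library fits, which may lower the number of P17 calls and of calls for the difference. edgeR and DESeq2 1.42.0 were run on the recovered reads as alternatives, together with other filters, pseudocounts, scalings, covariates, a replicate block and fits that left out libraries. The fits were tested on simulated data.

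The comparison and the gene lists were chosen with earlier results of these data known. Named genes were Vldlr, up to 15 genes in each direction with the largest changes (called in all 10 leave-one-out fits, at least 5 CPM in the higher group, no overlap), up to 4 called members per list (or 2 with the smallest p where none was called), and members looked up by role; others are said to be chosen after their values were seen. Gene positions are from GENCODE vM21, which matched 99.8% of 28984 genes, and promoters are from RefSeq on GRCm38.p6. Depth ranged over less than a factor of 2 between the 10 P31 libraries. Same-numbered KO and control libraries did not deviate together over all tested genes and were not treated as pairs. Results for a few genes that these rules would name are not reported here.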

Additional observations from a re-analysis of the deposited data

Results flagged for a closer look

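In groups of 5 libraries, a library was singled out where its gap to the nearest other library on the log2(CPM + 0.5) scale, divided by the range of the group, exceeded 0.71. For normally distributed values chance gives about 1 in 20, and 24 of 248 groups checked met this. Where all other libraries of a group had 0 reads, the ratio is 1 at any level, so the share cannot be set against 1 in 20. The values that follow are levels in CPM.

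Control 1 was the highest control for Vldlr (26.5), Brca1 (0.728), Cenpf (0.880), Mki67 (7.73), Lrp8 (1.52) and Rims2 (0.485). Control 1 is also the control with the most rod transcripts and 1 of 2 controls with Y-linked genes above 3 CPM, and the part of either in these values was not tested. Control 3 was the highest control for Dtl (4.55), Ccnb2 (11.03) and Vegfa (0.605). Control 5 was the highest control for Rps3a3 (1.25) and Fabp5 (15.7). Control 2 was the lowest control for Hmgb2 (10.6), and control 4 was the lowest for Brca2 (0) and H2-Ob (110.3).

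KO library 1 was the highest of its group for Ets1 (8.40), P2ry13 (3117), Cyp51 (70.8) and Lrp8 (1.42), and the lowest for Cd63 (594.7). KO library 2 was the highest for Jag2 (6.35) and Rhof (3.24). KO library 4 was the highest for Tnfsf13b (96.1) and Vegfa (4.68), and KO library 5 for Tyms (77.0).

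For 6 named genes the KO effect differed between the ages by limma over 22 libraries. The log2 differences, P31 minus P17, were 3.40 for Mcm6, 4.16 for Brca1, 4.56 for Dtl, 3.95 for Cxcl13, 5.91 for Rims2 and -4.91 for Ets1. The mean of Rims2 was higher in P17 controls than in the P17 KO and higher in the P31 KO than in P31 controls. The rod list changed sign in the same way, from a median log2 effect of -1.88 (P17) to 1.78 (P31), though no rod gene was called for the difference. With the rod covariate, the Rims2 difference did not pass (limma adjusted p = 0.491). The part of rod RNA in the reversal of Rims2 was not tested further.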

How the results depend on the processing

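No named gene with a call in either fit changed direction under any alternative run here. The 393 genes called by limma (228 higher, 165 lower) became 619 (354 and 265) with DESeq2, 231 (140 and 91) with edgeR, 202 (122 and 80) with no filter beyond 1 read, 235 (141 and 94) with a Y-linked score as a covariate, 196 (136 and 60) with only the Xist-positive libraries, 139 (91 and 48) with a rod score covariate, and 252 (141 higher) without both KO libraries 4 and 5. Genes with 10 reads in all 10 libraries gave 143 higher. Leaving out 1 library gave 254 to 340 calls, 136 to 193 higher and 106 to 161 lower. The cause of these shifts was not tested.

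The replicate number as a block gave 177 calls (110 higher, 67 lower), 12 for the cell cycle lists and 0 for the interferon response. Over all tested genes, same-numbered libraries had correlated deviations of at most 0.02, and they were not treated as pairs. These correlations average over genes, so pairing that touches some genes was not tested.

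For the cell cycle lists, 32 calls became 15 with the Xist-positive libraries, 14 with the Y-linked covariate, 14 without both KO libraries 4 and 5, 13 with no filter beyond 1 read, 10 with 10 reads in all 10 libraries, 9 with the rod covariate, 8 with edgeR, and 14 to 29 with 1 library left out. For the interferon response, 5 calls became 11 with DESeq2, 3 with edgeR, with all 22 libraries, with the Y-linked covariate or without both KO libraries 4 and 5, 2 with no filter or with the Xist-positive libraries, 1 with the rod covariate, and 3 to 6 with 1 library left out. For class I presentation, 6 calls became 3 with all 22 libraries or with the rod covariate, and 5 to 6 with 1 library left out. For the difference between the ages, 8 calls became 3 with edgeR, 1 with the rod covariate, and 4 to 12 with 1 library left out.

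Depth limits genes at 0, whose floor was 3 reads per library, and genes near that floor rest on few reads. The number of cells or animals per library is not given.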
